A study of Mus musculus with 2 samples.

Results

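Cytosolic ribosomal protein genes were examined on beadchips of mouse embryonic stem cells (mESCs) grown in LIF or in LIF plus CHIR99021 (CHIR). Rows of the longer table were taken if their identifier was Rpl or Rps followed by a number and at most 1 letter and 1 further digit, or Rpsa, Rplp0, Rplp1 or Rplp2. This rule uses names and no measured value. It found 68 of 30774 identifiers, 38 of the large (60S) and 30 of the small (40S) subunit. Of 79 genes of the standard set of ribosomal proteins, 62 were matched under their own symbol, and the remaining 17 are described only where another entry stands for them. The other 6 members are Rpl3l, Rpl7l1, Rpl22l1, Rpl39l, Rps27l and Rps4y2, paralogues or related genes.

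Both cultures were mESCs of strain B6, labelled inner cell mass and E3.5 embryo, in medium with serum and LIF, a cytokine that signals through Stat3. To 1 of them CHIR was added for 12 h. CHIR blocks the kinase GSK3, which otherwise marks β-catenin for destruction, and so turns on the Wnt pathway. The study's other experiments name the mESC line 46C, so the line on the arrays is not settled, and the CHIR dose on the arrays is not given in the sources used here. Each condition was measured on 1 Illumina array, so the difference between 2 arrays has no replicate check, and culture and treatment cannot be told apart.

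The ribosome reads mRNA on its small subunit and joins amino acids on its large subunit. Each particle needs 1 copy of nearly every ribosomal protein, and the genes are among the most strongly transcribed in growing cells. Their mRNAs begin with a terminal oligopyrimidine (TOP) element, a short run of C and T bases at the start of the transcript through which mTORC1 signaling controls their translation.

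A signal is the brightness of the beads for an identifier after background subtraction, in arbitrary units. An identifier was called present if its signal on at least 1 array reached the lowest signal of single-probe identifiers with a detection p-value under 0.01 (51.9 in LIF, 47.1 in LIF plus CHIR), and 10803 identifiers were. Of the mESC markers Pou5f1, Sox2, Nanog, Zfp42, Esrrb and Tdgf1, 5 were present and Tdgf1 was not. Of the primitive endoderm markers 0 of 4 were present and of the neural markers 0 of 3, and of 5 fibroblast genes Thy1 alone was present (222 and 225). Axin2, a negative regulator induced by Wnt, had a signal of 314 without and 1178 with CHIR.

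The signals of ribosomal protein transcripts were close to equal on both arrays. Of the 68 members, 61 were present, all of them on both arrays (34 of the 60S and 27 of the 40S subunit). None reached a 1.5-fold difference in either direction. Among all present identifiers, 2.55% passed that limit upward with CHIR and 2.88% downward. The median log2 fold change of LIF plus CHIR over LIF was -0.01 over the 61 members and 0.00 over all present identifiers. In all, 29 members had a higher and 32 a lower signal with CHIR, and 44 of the 61 (72.1%) differed by less than 1.1-fold. That share was 50.4% over all present identifiers. With a signal of at least 10000 on the brighter array, it was 76.0% of 50 members and 72.1% of 456 other identifiers. Among bright identifiers the shares were thus close.

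Most members lay near the top of the array's scale. In LIF, 48 members had a signal of at least 10000, as did 477 of all identifiers. In LIF plus CHIR the numbers were 50 and 488. Members made up 20 of the 100 brightest identifiers on each array. They carried 6.56% of the summed positive signal in LIF and 6.55% in LIF plus CHIR. The brightest identifier of the LIF plus CHIR array was Rplp1, at 57868. Signals of different identifiers come from different probes, so their order is not an order of RNA amounts. Whether signals near the top of the scale still rise in proportion to RNA was not tested. Close signals there do not show equal RNA amounts. The other identifiers among the 5 brightest members were Rps2 and Rpl41, described with their roles, Rpl27, with 50312 in LIF and 54255 with CHIR (0.11), and Rps9, with 44833 and 48094 (0.10).

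**Figure D1:**
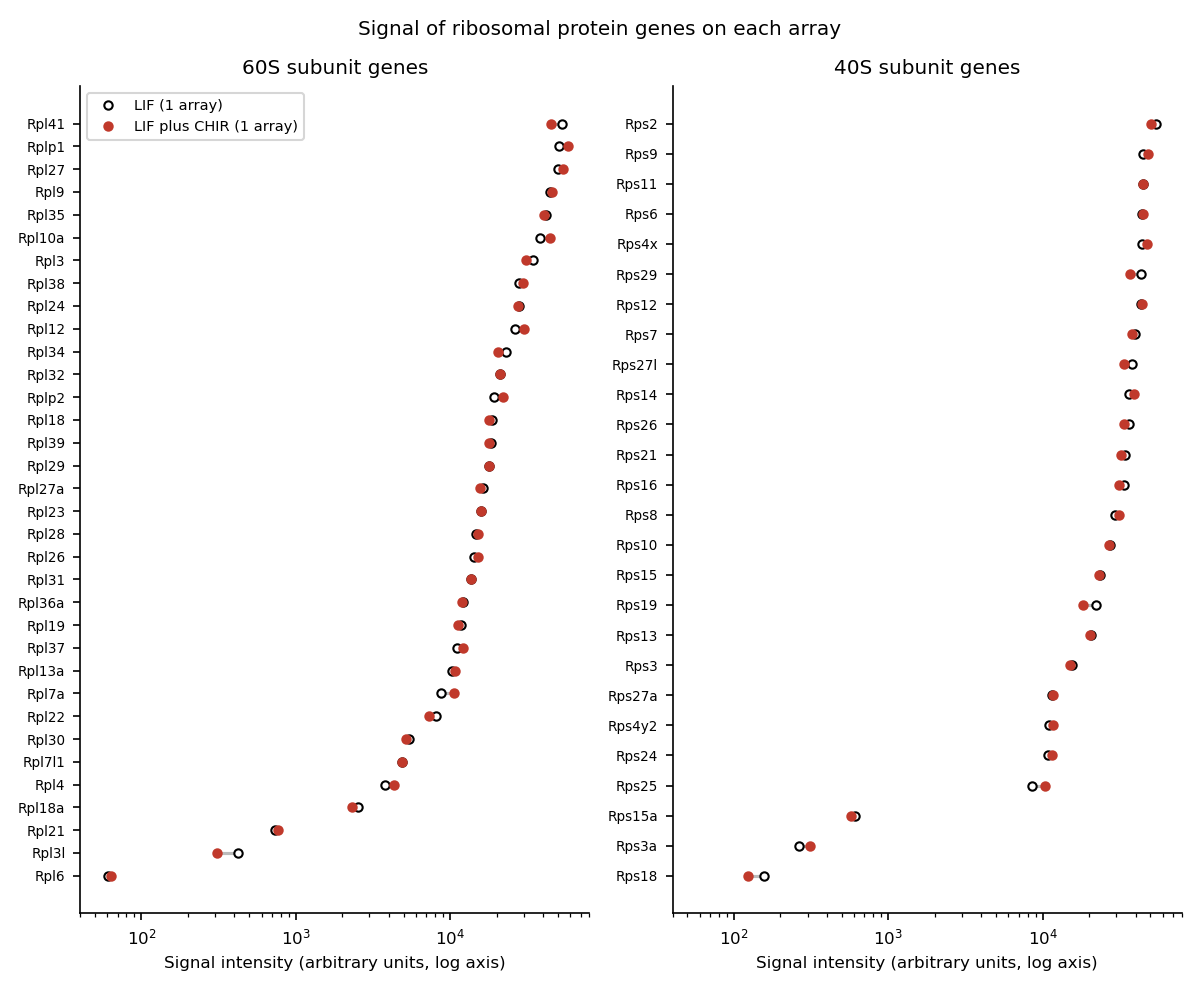
Signal intensity (log axis, arbitrary units) of the present members, 1 of them not drawn, on the LIF array (open points) and the LIF plus CHIR array (filled points), 1 array each with no error available. The points of a gene nearly coincide, and the most separated pairs include Rpl3l (420 and 311) and Rps19 (22228 and 18281).

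Over all present identifiers the log2 fold changes had an interquartile range of 0.27, and over the members 0.16. Since most members are bright, they were also set beside other bright identifiers. With a signal of at least 10000 on the brighter array, 50 members had a median log2 fold change of -0.01 and an interquartile range of 0.15. The 456 other identifiers in that range had an interquartile range of 0.16. The spread of bright members was thus close to that of other bright identifiers. At 1.5-fold, 0.791% of all identifiers in the range were higher and none was lower.

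At a limit of 1.2-fold, 2 of 61 members were higher with CHIR, Rps25 and Rpl7a, and 3 were lower, Rpl3l, Rps18 and Rps19. With normexp background correction fitted on all identifiers, Rpl3l (-0.11) and Rps18 (-0.03) no longer passed that limit, while Rps19 (-0.29) did. With the same correction fitted on single-probe identifiers, Rpl3l (-0.42), Rps18 (-0.30) and Rps19 (-0.28) all passed it. Over all present identifiers 11.6% were higher and 12.6% lower by that limit. In the range from 10000 upward on the brighter array these shares were 2.77% and 3.16%, and of the 50 members there 2 were higher and 1 was lower. Those 2, Rps25 (8505 in LIF, 10327 with CHIR) and Rpl7a (8728 and 10578), reached 10000 only with CHIR. The range thus took them in through the array where they were higher, so their count is no comparison with that background.

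**Figure D2:**
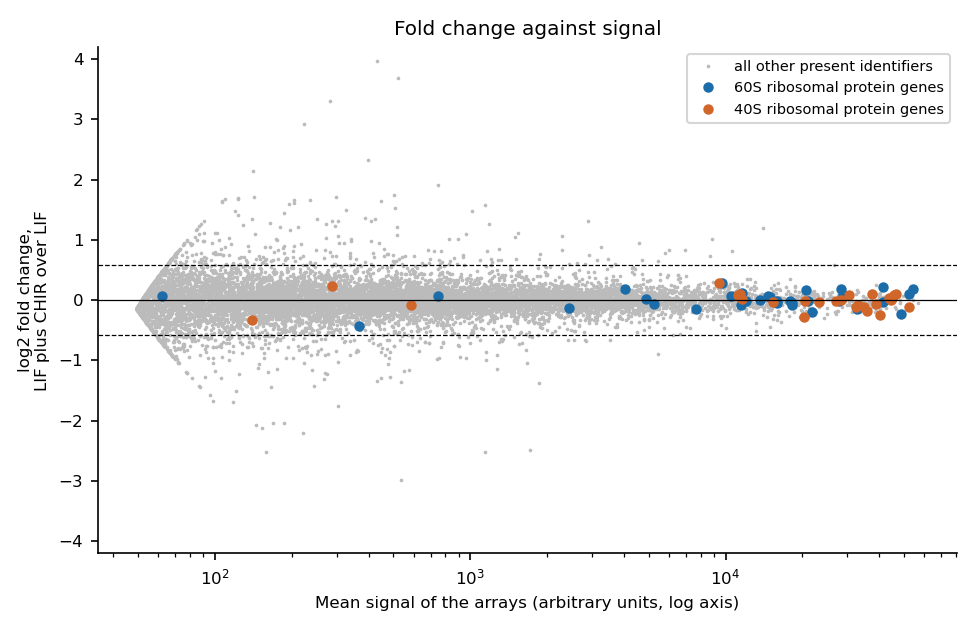
Log2 fold change of LIF plus CHIR over LIF against mean signal (log axis) for 10803 present identifiers, with members of the 60S and 40S subunits in color and dashed lines at 1.5-fold. All 61 members lie between the dashed lines, from -0.43 to 0.28.

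The starts of the transcripts were read from RefSeq (GRCm38.p6) to see which sequence features the family shares. Promoter sequence was matched for 52 of the 68 members, with 62 annotated starts. The windows printed here run from 10 bases before to 20 after an annotated start, on the strand of the gene, with the longest run of C and T in capitals where it has at least 6 bases. They were chosen to set Rps6 and stalk genes, whose starts hold such runs, beside members with large differences between the arrays. Where a gene has several starts, the one with the longest run is shown.
Rps6 (chr4:86857348-86857377, minus strand): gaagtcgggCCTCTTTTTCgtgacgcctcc
Rplp2 (chr7:141447641-141447670, plus strand): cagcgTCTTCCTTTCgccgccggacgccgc
Rpl12 (chr2:32961702-32961731, plus strand): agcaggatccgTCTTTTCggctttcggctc
Rpl7a (chr2:26910797-26910826, plus strand): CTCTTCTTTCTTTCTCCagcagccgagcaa
Rps25 (chr9:44407704-44407733, plus strand): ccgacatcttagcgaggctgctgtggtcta
Rps19 (chr7:24884903-24884932, plus strand): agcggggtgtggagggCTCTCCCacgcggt
Rpl41 (chr10:128549149-128549178, minus strand): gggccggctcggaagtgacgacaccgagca
Rpl3l (chr17:24727816-24727845, plus strand): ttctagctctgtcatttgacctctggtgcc

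Rps6, Rplp2, Rpl12 and Rpl7a hold runs of 10, 10, 7 and 17 bases at or beside the start, the last of which begins at the edge of the window. Rps25 and Rpl41 hold none of 6 bases in this window. Rpl3l, the muscle paralogue, also holds none. Rps25 and Rpl7a, both higher with CHIR, differ in this feature at their annotated starts. Whether the mRNAs in these cells begin at the annotated bases was not tested, so a missing run does not show a missing TOP element. Of the 3 annotated starts of Rps19, 1 holds a run of at least 6 bases, and the longest runs at the others have 4.

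Over the 62 member starts, 56.5% held a run of at least 6 C or T in the window, against 28.7% of 32851 starts of all genes. The sequence CTTTC on the strand of the gene was found in the window at 19.4% of member starts and 3.74% of all starts. From 250 bases before to 50 after the start, on both strands, CCGGAAG, a sequence bound by ETS factors such as GABP, was found at 40.3% of member starts and 8.86% of all. The Myc site CACGTG was found at 12.9% and 7.15%, and TATAAA at 8.06% and 13.6%. CTTTGAT, bound by the TCF factors through which β-catenin acts, was found at 0 of 62 member starts and at 3.73% of all, which says only that these letters are not in this window. Matches are a description of the sequence, and matches of different motifs may overlap. The shares over all starts were not limited to genes present on the arrays. Whether other active genes share these features was not tested.

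**Figure D3:**
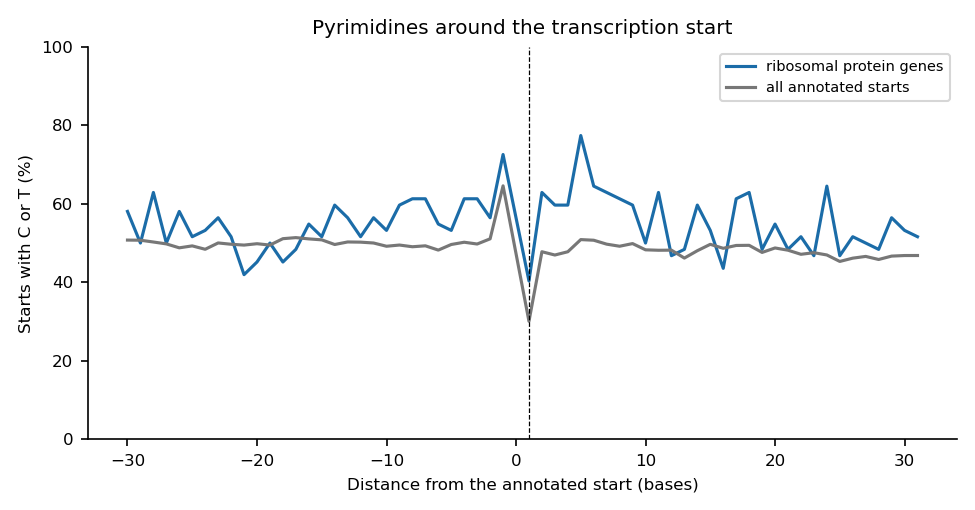
Share of annotated starts with C or T (vertical axis, percent) at each distance in bases from the start (dashed line) for 62 member starts and 32851 starts of all genes. The members lie above all genes over the first bases after the start, with 77.4% against 50.9% at base 5.

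The 60S genes are given first, by place and role in the subunit. The stalk is a flexible arm that recruits the elongation factors. It is built from P1 and P2 on a base of P0, next to L12. Rplp1 had a signal of 51002 in LIF and 57868 in LIF plus CHIR (log2 fold change 0.18). Rplp2 had 19387 and 21876 (0.17). Rpl12 had 26503 and 30293 (0.19). The 3 stalk members therefore had higher signals with CHIR by nearly equal amounts, all under 1.2-fold. P0 was found under its older symbol Arbp, outside the rule, with 1661 and 1672 (0.01), and predicted entries similar to P0 had 23109 and 24999 (0.11) and 709 and 874 (0.30), so the readings for P0 did not settle on one value.

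The nascent chain leaves through a tunnel lined by L4, L17 and L39. Rpl4 had a signal of 3793 without and 4318 with CHIR (0.19), and Rpl39 had 18436 and 17865 (-0.05). Rpl17 was at background on both arrays. Around the mouth of the tunnel, where chaperones and targeting factors dock, all 4 present genes differed by less than 1.1-fold. Rpl35 had 41652 and 40769 (-0.03). Rpl19 had 11817 and 11232 (-0.07), and Rpl26 had 14333 and 15094 (0.07). Rpl31 had 13582 and 13626, a difference too small to show in the second decimal of the log2 value. Near the peptidyl transferase center, where peptide bonds form, Rpl3 had 34396 and 31008 (-0.15).

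Among the remaining 60S genes, Rpl7a had the largest difference upward, with 8728 in LIF and 10578 with CHIR (log2 fold change 0.28, 1.21-fold). Rpl10a followed, with 38403 in LIF and 44442 in LIF plus CHIR (0.21). Rpl41, which encodes the shortest ribosomal protein, had 52756 and 44929.6 (-0.23, 1.17-fold lower), the largest difference downward after that of Rpl3l. Rpl34 had 23176 and 20317 (-0.19). The median over the 34 present 60S genes was 0.00, with 17 higher and 17 lower.

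In the 40S subunit the mRNA enters past S2 and S3. Rps2 had a signal of 54659 without and 50443 with CHIR (-0.12), and Rps3 had 15516 and 15128 (-0.04). At the mRNA exit, Rps26 had 36106 and 33542 (-0.11). Rpsa, a further exit protein, was at background. Rps2, Rps3 and Rps26 thus had slightly lower signals with CHIR, by less than 1.1-fold. At the decoding site, where codons are matched with tRNA, Rps15 had 23475 and 23119 (-0.02), while Rps23 was at background. Rps12, a 40S gene without a place in these groups, had 43076 and 44054 (0.03).

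Rps6 is the best known substrate of the S6 kinases and a readout of mTORC1 activity at the protein level. Its transcript had a signal of 44340.2 in LIF and 44985 in LIF plus CHIR (0.02). Rps27a, made as a fusion with ubiquitin, had 11477 and 11643 (0.02). Phosphorylation of S6 was not measured here, and an RNA signal does not report on it.

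The 40S gene with the largest difference upward was Rps25, whose protein is used by several viral internal ribosome entry sites, with 8505 in LIF and 10327 with CHIR (0.28, 1.21-fold). Rps3a had 264 and 311 (0.24). Rps19, the gene most often mutated in Diamond-Blackfan anemia, had 22228 and 18281 (-0.28, 1.22-fold lower). Rps29 had 43613 and 36894 (-0.24). These genes of large difference thus lay on both sides. Rps18 had a low signal, 156 in LIF and 123 in LIF plus CHIR (-0.34). Over the 27 present 40S genes the median was -0.01, with 12 higher and 15 lower, close to the median of the 60S genes. The 5 matched genes of a list of 9 mutated in Diamond-Blackfan anemia (Rps7, Rps10, Rps19, Rps24 and Rps26) had a median of -0.07.

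The paralogues ranged from background to bright signals. Rpl3l, the striated muscle form of Rpl3, had 419.8 and 311 (-0.43), the largest difference of any member. Under the normexp correction fitted on all identifiers, Rps3a also moved, to 0.04, while the fit on single-probe identifiers gave 0.22. Rps27l, a relative of Rps27 known as a p53 target, had 38119.6 in LIF and 33485 in LIF plus CHIR (-0.19). Rpl7l1 had 4842 and 4892 (0.01), and Rps4y2, a gene close in sequence to Rps4x, had 10975 and 11742 (0.10). Of their relatives, Rps4x had 44231 and 47183 (0.09), and Rpl22 had 8066 and 7287 (-0.15). Rpl22l1 and Rpl39l were at background on both arrays. Near-identical copies can share bead binding, so the signals of Rps27l and Rps4y2 may include RNA of their relatives, which the files do not separate.

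The 7 members at background were Rpl14, Rpl17, Rpl22l1, Rpl39l, Rps20, Rps23 and Rpsa, with signals from -14.0 to 11.6 in LIF and from -16.3 to 18.0 in LIF plus CHIR. No fold change is given for them. Rps20 is an example. Its signals were -14.0 and -16.3, whereas of 3 predicted entries described as similar to ribosomal protein S20, 1 had 41977 without and 42682 with CHIR and 1 had 36313 and 37970. A signal at background thus does not show that RNA of the protein was missing. At the low edge of presence lay Rpl6, with 60.4 and 63.3.

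Presence by signal and by detection p-value differed for some members. For 4 present members the p-value was 0.01 or higher on both arrays. Rpl18 had signals of 18762 and 17788 with p-values of 0.401 and 0.441. Rpl37 had 11122 and 12124 with p-values of 0.325 and 0.0668, and Rpl4 and Rps18 were the others. None of the 4 had p-values that a single probe could give, so they were treated as identifiers of several probes, and presence was read from the signal.

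The arrays hold 67 predicted entries outside the rule that are described as similar to a named cytosolic ribosomal protein, and 38 were present. They give a second reading of similar sequence from other probes on the same arrays, but it is not independent, because such entries may share sequence with the gene. Over 21 pairs of a present member and a present entry for the same protein, the log2 fold changes differed in size by a median of 0.15, and 13 pairs had the same sign. In the 13 pairs, over 10 members, with signals of at least 1000 on the brighter array, the median difference was also 0.15, the largest was 0.20, and 8 pairs had the same sign.

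Pairs of members with large differences are given here, chosen after their values were seen. The entry similar to L12 had 15416 in LIF and 15294 in LIF plus CHIR (-0.01), beside 0.19 for Rpl12. The entry similar to S18 had 16520 and 17021 (0.04), beside -0.34 for the dim Rps18. Of the 3 present entries similar to L7a, the brightest had 11786 and 12701 (0.11), beside 0.28 for Rpl7a. In these pairs the predicted entry lay closer to 0 than the named member, and the other present entries similar to L7a had 0.19 and -0.70. For a member near 0 the order was the opposite, as for Rps12 at 0.03 beside an entry with 4982 and 4537 (-0.14). The 0.17 to 0.19 of the stalk genes is of the size by which such pairs differ.

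**Figure D4:**
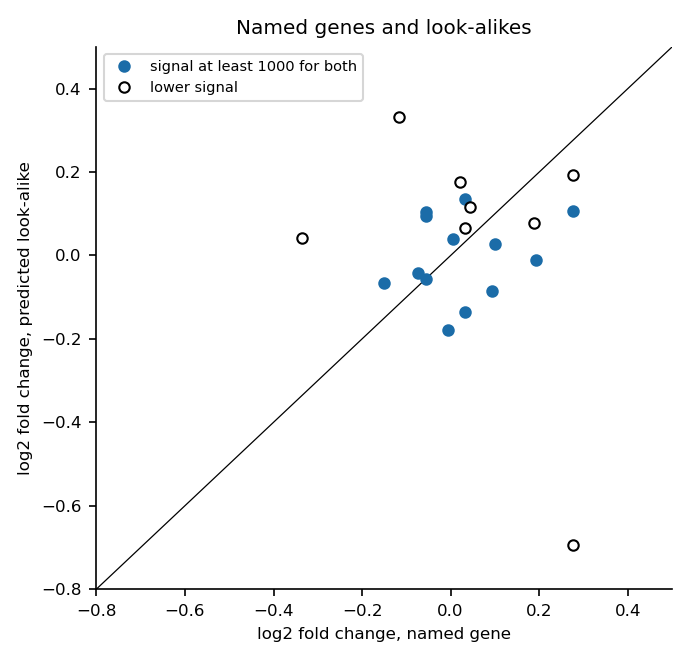
Log2 fold change of a predicted entry (vertical axis) against that of the named member (horizontal axis) for 21 pairs, with the line of equality. Filled points are the 13 pairs with signals of at least 1000, and their largest vertical distance from the line is 0.20.

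For some standard genes that the rule did not match, values come from such entries. The brighter present entry similar to L5, which with L11 and 5S rRNA forms the particle that binds Mdm2, had 13766 in LIF and 13463 in LIF plus CHIR (-0.03). The one similar to L8 had 30676 and 34599 (0.17), and the one similar to L7 had 35515 and 42193 (0.25). For S17 the values were 35882 and 33068 (-0.12), and the entry similar to S28 had a log2 fold change of -0.16. The bright entries similar to L13 (-0.02), L15 (0.05), L37a (0.03) and S27 (-0.01) had small differences. None of these differed by 1.5-fold, and of all 38 present entries 0 were higher and 1 was lower by that limit, a dim entry similar to L7a with 76.2 and 40.5. Over all present identifiers 2.55% were higher and 2.88% lower by 1.5-fold, so these counts do not show that the entries were more stable.

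Genes that build or use ribosomes were described from lists of other genes. For 40 ribosome biogenesis genes, 38 were matched and 31 present. None reached 1.5-fold or 1.2-fold, and their median was -0.02. At 1.2-fold, 11.6% of all present identifiers were higher and 12.6% lower, and 2.77% and 3.16% of those with a signal of at least 10000. No share was taken at the signal levels of each list, so such counts do not show that a list was more or less stable. Npm1, a nucleolar chaperone of ribosome assembly, had 15917 in LIF and 18497 in LIF plus CHIR (0.22), the largest difference upward in the list. Wdr74, an assembly factor of the large subunit, had 7147 and 6382 (-0.16), the largest downward. Ncl, which encodes nucleolin, had 2874 and 2984 (0.05).

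RNA polymerase I transcribes the ribosomal RNA precursor. Of 14 listed genes for the polymerase and its factors 12 were present, with a median of 0.05 and none past 1.5-fold. Ubtf, the factor that opens the rRNA genes, had 2034 in LIF and 2083 in LIF plus CHIR (0.03). Taf1c, a subunit of the promoter selectivity factor, had 53.4 and 75.2 (0.49), near the presence limit, and was the only one of these genes past 1.2-fold. Of 17 other genes with TOP elements, most of them translation factors, 13 were present with a median of 0.00 and none past 1.5-fold. At 1.2-fold 2 of them were higher, Eif4b, an initiation factor (184 and 235, 0.35), and Vim, which encodes vimentin (659 and 829, 0.33), and 0 were lower. The shares over all present identifiers were 11.6% higher and 12.6% lower. Eef2, the elongation factor that moves the ribosome along the mRNA, had 3141 and 3173 (0.01), and Eef1g had 39422 and 40629.8 (0.04).

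The mitochondrial ribosome is a separate particle with its own proteins. Of its 73 matched genes 67 were present, with a median of 0.00, a range from -0.40 to 0.19 and none past 1.5-fold. At 1.2-fold 0 were higher and 2 were lower, Mrpl51 (-0.40) and Mrps24 (-0.28), beside 11.6% higher and 12.6% lower of all present identifiers. In a list of genes named as S6 kinases and genes of mTORC1 and its outputs, 11 of 17 were present, with a median of -0.12, and 1 of them was past 1.5-fold. This was Rps6ka5, which encodes a stress-activated kinase, with 93.1 in LIF and 53.1 in LIF plus CHIR (-0.81), near the presence limit. The present genes included Rps6ka1 to Rps6ka5, so the median does not describe mTORC1 outputs alone. Of all present identifiers, 2.88% were lower by 1.5-fold. At 1.2-fold Pdcd4, a translation repressor, was also lower (-0.38), and Rps6ka3 was higher (0.28). Eif4ebp1, a repressor of cap-dependent translation released by mTORC1, had 14538 and 13402 (-0.12). Rps6kb1 and Rps6kb2, the S6 kinases proper, were below the presence limit on both arrays.

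**Figure D5:**
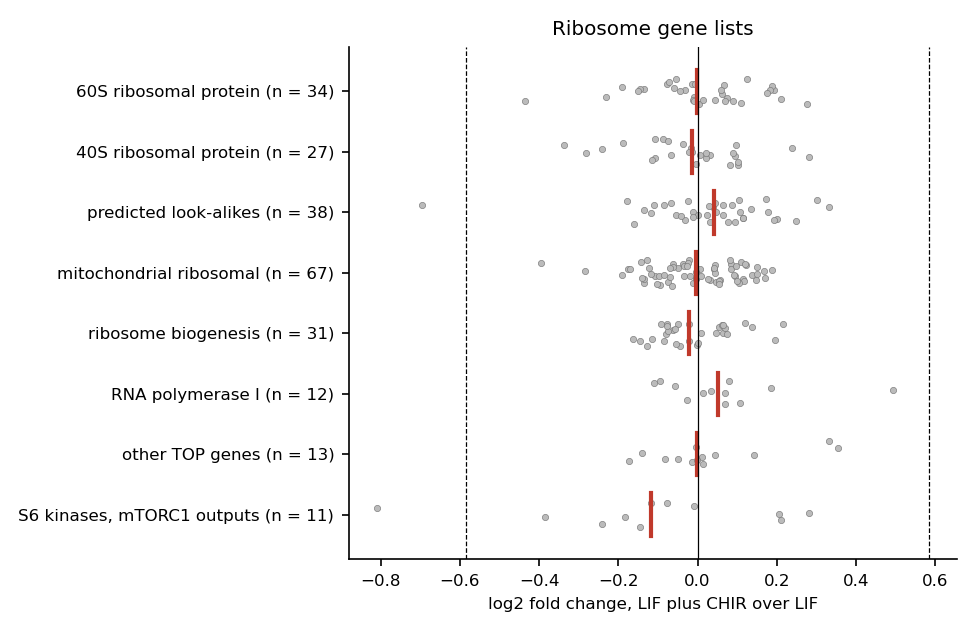
Log2 fold change of LIF plus CHIR over LIF for present genes of 8 lists (points, 1 per identifier, spread vertically for visibility), with the median as a red bar and dashed lines at 1.5-fold. Medians lie from -0.12 to 0.05, and 2 identifiers lie outside the dashed lines, Rps6ka5 and the dim entry similar to L7a.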

How the data were processed

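The authors deposited signal intensity per gene identifier and array (Illumina mouse beadchip), background-subtracted, and a detection p-value against negative control beads. The normalization, software and genome build are not given in the sources used here. The table named as not normalized held the same values as the shorter table (0 of the shared signals differed), and its arrays were nearly equal in median (10.5 and 10.4) and 95th percentile (3093 and 3077). Members and lists were chosen with earlier results of these data known. With 1 array per condition, no test across samples was possible.

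Identifiers whose p-values were multiples of 1 over 936 were treated as having 1 probe. Signals below the presence limit were raised to it before log2 ratios with CHIR over without were taken (pandas 2.3.3, numpy 2.4.6, Python 3.11.15). The calculation was tested on simulated data. Figures were drawn with matplotlib 3.10.9. Alternatives were other presence rules, no minimum signal, quantile normalization, equal medians, normexp (limma 3.58.1, R 4.3.3, offset 16), the shorter table, means per Entrez gene, and limits of 1.2-fold and 2-fold. The genes named were the 5 members with the largest difference in each direction, any past 1.5-fold, the 5 brightest and 3 dimmest present members, those not present, and the role groups and paralogue pairs. Rpl34, Rpl18 and Rpl37 were added after their values were seen. Some genes of the role groups are not reported here by name, but stay in the counts and medians. Precision is limited by the number of arrays.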

Additional observations from a re-analysis of the deposited data

How the results depend on the processing

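No paired analysis was possible because a single array stands for each condition, without replicates. The median log2 fold change of the members stayed within 0.01 of its value under every alternative that was run, including 3 added after seeing the data (without members under a signal of 1000, with 1-probe members only, and without paralogues). No member passed 1.5-fold in either direction under any alternative scaling, background or presence rule. The limit of 1.2-fold gave 2 higher and 3 lower, and the limit of 2-fold gave 0 of each. Between 57 and 62 members were present. Of 175 values for 13 named genes, 15 moved by 0.01 or more, all under quantile normalization or normexp. Other presence rules, the shorter table and the subsets of members reuse the same ratios, so they could not move a gene. None of the 13 genes changed sign. Normexp correction fitted on all identifiers, with a background SD of 588.4 in LIF, took Rpl3l to -0.11, Rps18 to -0.03 and Rps3a to 0.04. Under that fit 2 of the 3 members lower by 1.2-fold no longer passed. Fitted on single-probe identifiers, with a background SD of 15.7 in LIF, it gave -0.42, -0.30 and 0.22 for these genes. Rpl3l and Rps18 then still passed, so the loss of these members depended on the fit.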
